A study of Homo sapiens with 6 samples.

Results

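The genes described here are 52 of the 20668 genes in a gene count table of SH-SY5Y cells, chosen by symbol. They fall into 28 established transcriptional targets of p53, 14 members of the BCL2 family, 5 genes made up of APAF1 and the caspases CASP2, CASP6, CASP8 and CASP9, and 5 genes made up of the caspase inhibitors XIAP, BIRC2, BIRC3 and CFLAR and their antagonist DIABLO. All 52 symbols had a row in the table. In total 50 of them passed the filter on low counts and were tested, and BIK and BIRC3 did not pass it.

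p53 is a transcription factor that is held low by the ubiquitin ligase MDM2, itself a p53 target, and that binds a response element made of a pair of 10-base repeats. Its targets arrest the cell cycle, repair DNA, control metabolism and, through BAX, BBC3, PMAIP1, FAS and TNFRSF10B, promote cell death. At the mitochondrion, guardians such as BCL2, BCL2L1 and MCL1 hold the pore formers BAX and BAK1 in check, and BH3-only proteins relieve that check. Released cytochrome c assembles APAF1 and CASP9 into the apoptosome, while death receptors activate CASP8, which CFLAR restrains.

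SH-SY5Y is an established human neuroblastoma line with features of sympathetic neuron precursors. RNA depleted of ribosomal RNA was sequenced from 3 libraries of untreated wild-type (WT) cells and 3 of untreated cells whose DNAJC12 gene, whose product is an HSP70 co-chaperone of the J-domain class, had been knocked out with CRISPR/Cas9. The labels give cell invasion as the question behind the lines. They do not say whether the 3 libraries of a genotype came from separate cultures or clones, or how many clones were used, so the p-values reflect only how these 6 libraries vary, and that variation may be technical.

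Library totals ran from 19321842 to 21869659 counts. DNAJC12 measured 23, 21.4 and 20 CPM (counts scaled to a common library size) in WT and 5.91, 5.87 and 4.85 CPM in the knockout, so part of its RNA remained in every knockout library. Of the 10 listed neuroblastoma markers 9 were tested, all of them detected in every library, with a summed level of 3279 to 3369 CPM in WT and 2982 to 3091 CPM in the knockout; 3 rose and 5 fell. The 7 tested markers of the substrate-adherent mesenchymal state of neuroblastoma summed to 2579 to 2781 CPM in WT and 3942 to 4087 CPM in the knockout, with 6 higher and 1 lower, and none at 0 in any library. VIM made up most of this sum, with a mean of 2086 CPM in WT and 3261 CPM in the knockout. The 6 fibroblast markers (2 higher, 2 lower) summed to 450 to 488 CPM in WT and 365 to 389 CPM in the knockout, and 4 tested Schwann cell markers of 5 (1 lower) to 7.72 to 9.68 and 7.37 to 8.35 CPM. In the fibroblast sum, DCN and LUM fell while COL1A1 and PDGFRA rose, so it joins opposite changes. Of 4 blood cell markers 2 were tested, PTPRC at under 1 CPM in every library and CD68, which rose; they summed to 10 to 13.9 and 17.8 to 26.3 CPM. The part of these marker differences in the results that follow was not tested. In bulk RNA, fewer cells that express a gene and less RNA per cell cannot be told apart.

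Of the 52 genes, 44 had at least 1 promoter window in the RefSeq set for GRCh38.p14, each of 300 bases from 250 before to 50 after a transcript start. Windows were searched on both strands for the consensus p53 response element, with at least 17 of 20 bases matching and a spacer of at most 1 base between the repeats. A match was present for 9 of the 44 genes (20.5%) and for 795 of all 27305 genes with a window (2.91%). Among the p53 targets it was 8 of 23 (34.8%), which were listed because p53 is known to bind near them. PMAIP1 was the single match among 11 BCL2 family genes, and 0 of 5 genes matched in each of the caspase and inhibitor groups. The sequences printed here are the 3 matched targets that fell in the knockout and MDM2, the p53 feedback regulator whose promoters are compared later. Capitals mark the matched element with any spacer and lower case 4 flanking bases on each side where the window holds them, 5′ to 3′ on the gene's strand.
DDB2: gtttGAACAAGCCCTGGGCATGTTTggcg
GDF15: gcacAGCCATGCCCGGGCAAGAACtc
SESN1: gtctGGACAAGTCTCCACAAGTCAgaaa
MDM2: agctGGTCAAGTTCAGACACGTTCcgaa
The DDB2 sequence (chr11:47214975-47215003, plus strand) matches 20 of 20 bases with a 1-base spacer with its element starting at base 6 of a transcript. The GDF15 sequence (chr19:18386182-18386207, plus strand) and the SESN1 sequence (chr6:109009014-109009041, minus strand) match 17 bases each. The MDM2 sequence (chr12:68808919-68808946, plus strand) matches 18 and lies 94 to 75 bases before the start of the inner, p53-responsive promoter. The other matches were in AEN and FAS (18 bases) and in FDXR, RPS27L and PMAIP1 (17 bases). By result in the knockout, a match was found in 0 of 3 p53 targets with a window that rose, 3 of 5 that fell and 5 of 15 that did not pass the threshold. A match describes these letters and does not show binding, and many p53 elements are known to lie outside such short windows.

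In the knockout against WT, 17 of the 50 tested genes (34.0%) passed an adjusted p of 0.05 (edgeR quasi-likelihood test, Benjamini-Hochberg adjustment over all 16403 genes tested), and 26.0% of all genes did. Of the 17, 8 were higher and 9 lower, where over all genes 14.5% were higher and 11.5% lower. When libraries were scaled by their totals alone, all genes split into 2055 higher and 2438 lower in place of 2383 and 1887, and the 50 genes into 8 and 10. The median log2 fold change of the 50 genes was 0.01, and their median absolute change of 0.22 was that of all genes (0.22). The 3 knockout values lay wholly above or below the 3 WT values for 22 of the 50 (44.0%; 11 above and 11 below) and for 41.7% of all genes (21.7% above and 20.1% below). By role, 5 p53 targets rose and 5 fell, 3 BCL2 family genes fell and 0 rose, CASP8 and APAF1 rose, CFLAR rose and DIABLO fell. The share called is not far from the background, and the p53 targets that passed were divided equally between the directions.

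**Figure D1:**
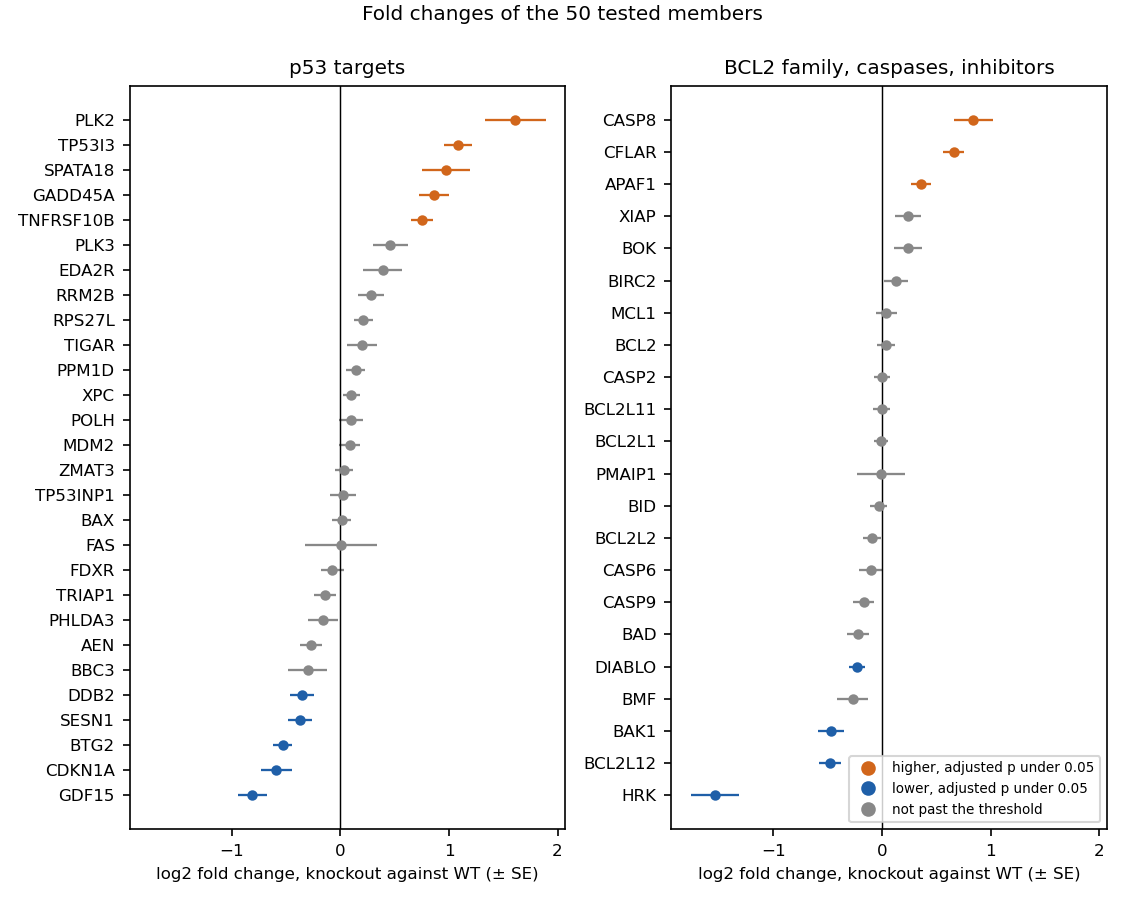
Log2 fold change of knockout against WT (horizontal axis, bars ± SE, n = 3 per genotype) for the 50 tested genes. The p53 targets have their own panel, the other genes share a panel, and each vertical axis is ordered by fold change. Changes run in both directions among the p53 targets, and those of BCL2, BCL2L1, MCL1 and BAX lie close to 0.

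The 5 p53 targets that rose act at the cell surface, in redox metabolism, at the centrosome, at mitochondria and in the DNA damage response. Values are in CPM after TMM scaling, given for replicates 1, 2 and 3 in order, means are ± SD with n = 3, fold changes are log2 values ± SE, and gene positions are those of RefSeq on GRCh38.p14.
PLK2, a polo-like kinase of centriole duplication and the stress response (chr5:58453982-58460086), measured 8.67, 12.4 and 20.6 CPM in WT and 30.3, 54.2 and 42.3 CPM in the knockout. That is a change of 1.61 ± 0.28 between means of 13.9 ± 6.08 and 42.3 ± 12 CPM (edgeR adjusted p = 0.00169). The change had the widest replicate spread of the 5, yet the lowest knockout library lay above the highest WT library. TP53I3, a quinone oxidoreductase-like enzyme (chr2:24077433-24084834), measured 37.4, 44.1 and 46.5 CPM in WT and 103, 72.1 and 96.1 CPM in the knockout. Between means of 42.7 ± 4.71 and 90.4 ± 16.2 CPM the change was 1.08 ± 0.13 (edgeR adjusted p = 0.000146). Its groups did not overlap, and knockout replicate 2 was the lowest of the 3 knockout libraries.
SPATA18, which takes part in the quality control of mitochondria (chr4:52051304-52097299), was a low-expressed gene with 6.92, 5.08 and 3.63 CPM in WT and 10.7, 8.48 and 11.5 CPM in the knockout. With means of 5.21 ± 1.65 and 10.2 ± 1.58 CPM, it changed by 0.97 ± 0.22 (edgeR adjusted p = 0.00846). Counts corrected for transcript length ended this call (edgeR adjusted p = 0.133). GADD45A, a stress sensor that acts on the cell cycle and DNA repair (chr1:67685201-67688334), measured 17.1, 14.6 and 22.1 CPM in WT and 31.8, 33.2 and 32.7 CPM in the knockout. The mean went from 17.9 ± 3.8 to 32.6 ± 0.739 CPM, a change of 0.86 ± 0.14 (edgeR adjusted p = 0.000917). The knockout libraries differed from each other by less than the WT libraries did. TNFRSF10B, the TRAIL death receptor DR5 (chr8:23020133-23069031), measured 76.1, 66 and 61.2 CPM in WT and 127, 101 and 115 CPM in the knockout. That is a change of 0.75 ± 0.10 between means of 67.7 ± 7.63 and 114 ± 13.1 CPM (edgeR adjusted p = 0.000344). All 3 knockout libraries lay above all 3 WT libraries.

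The 5 p53 targets that fell include the cell cycle inhibitor CDKN1A, the most abundant of them. CDKN1A, which encodes the cyclin-dependent kinase inhibitor p21 (chr6:36676463-36687332), measured 212, 194 and 191 CPM in WT and 157, 98.1 and 142 CPM in the knockout. Between means of 199 ± 11.7 and 132 ± 30.4 CPM the change was -0.59 ± 0.14 (edgeR adjusted p = 0.0104). The knockout spread was wide, with replicate 2 lowest, and the groups did not overlap. GDF15, a secreted stress cytokine (chr19:18386158-18389176), measured 17.8, 19.1 and 21.3 CPM in WT and 13, 10.4 and 9.93 CPM in the knockout. With means of 19.4 ± 1.77 and 11.1 ± 1.65 CPM, it changed by -0.81 ± 0.13 (edgeR adjusted p = 0.00105). BTG2, an antiproliferative regulator of mRNA decay (chr1:203305519-203309602), measured 53.1, 48.2 and 46.7 CPM in WT and 35, 31.9 and 35.2 CPM in the knockout. The mean went from 49.3 ± 3.31 to 34.1 ± 1.85 CPM, a change of -0.53 ± 0.087 (edgeR adjusted p = 0.00105). Both fell in every knockout library relative to every WT library.
SESN1, a sestrin that restrains mTORC1 (chr6:108984309-109094846), measured 28.3, 25.2 and 24.8 CPM in WT and 22.3, 19 and 19.4 CPM in the knockout. That is a change of -0.37 ± 0.11 between means of 26.1 ± 1.89 and 20.2 ± 1.79 CPM (edgeR adjusted p = 0.0252). DDB2, a DNA damage sensor of nucleotide excision repair (chr11:47214454-47239217), measured 52.5, 54.8 and 52.4 CPM in WT and 47.4, 34.2 and 43.9 CPM in the knockout. Between means of 53.2 ± 1.37 and 41.8 ± 6.85 CPM the change was -0.35 ± 0.11 (edgeR adjusted p = 0.0459). These last 2 calls were lost when single libraries were left out. For SESN1 the edgeR adjusted p was 0.105 and 0.0579 when WT replicates 1 and 2 were left out, and 0.0506 and 0.115 when knockout replicates 2 and 3 were. For DDB2 it was 0.0983, 0.136 and 0.0986 when WT replicates 1, 2 and 3 were left out, and 0.0639 and 0.0893 when knockout replicates 2 and 3 were. The DDB2 call was also lost with counts summed from the transcript values (edgeR adjusted p = 0.0702) or corrected for length (0.13). With both lost, 3 targets remained lower.

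**Figure D2:**
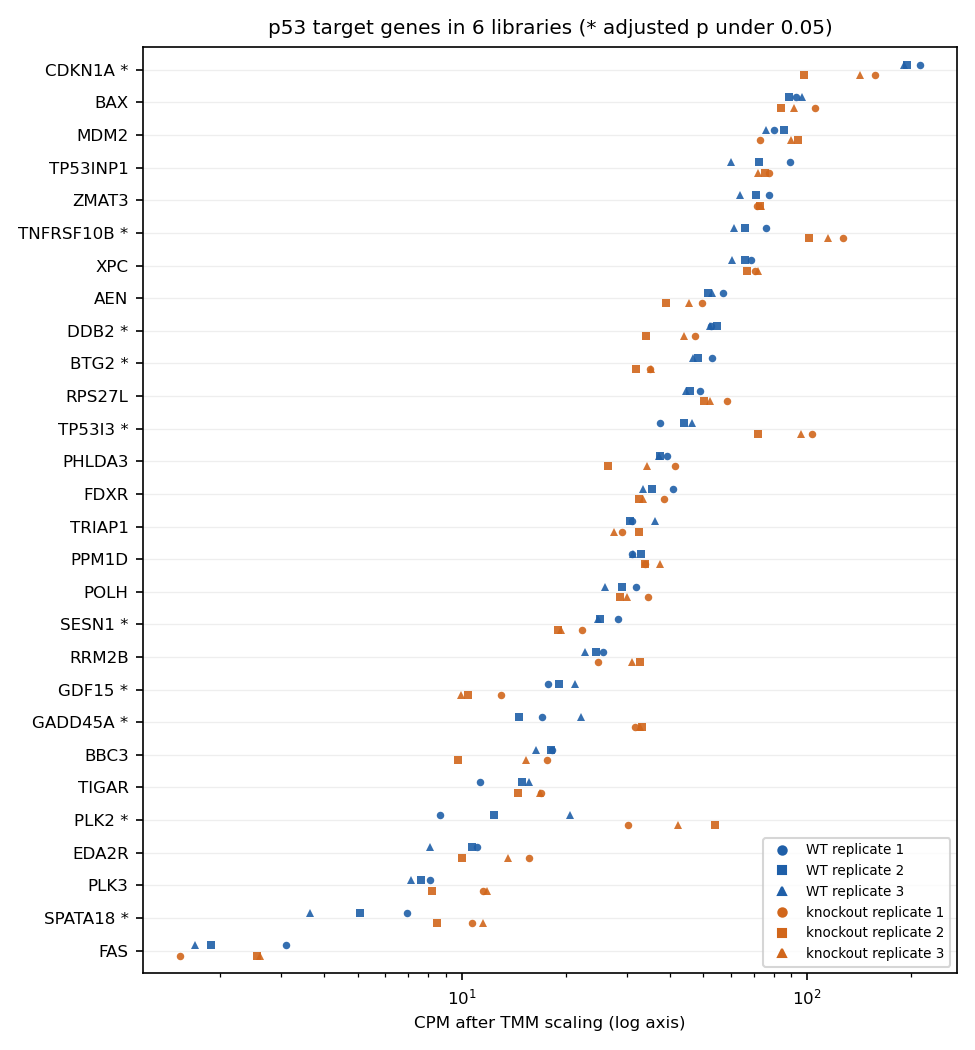
Level of the 28 p53 targets in each library, in CPM after TMM scaling on a log axis, with WT in blue, knockout in orange and marker shape giving the replicate; an asterisk marks an adjusted p under 0.05. The groups separate upward for TP53I3, PLK2 and TNFRSF10B and downward for CDKN1A, GDF15 and BTG2, and overlap for MDM2 and BAX.

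The remaining 18 p53 targets did not pass the threshold, and their median with the other 10 was 0.061 over the 28. MDM2 measured 80.3, 85.9 and 75.9 CPM in WT and 73.1, 94.1 and 89.6 CPM in the knockout, a difference of 0.086 ± 0.099 (edgeR adjusted p = 0.587). BAX, the pore former of the mitochondrial outer membrane, measured 93, 88.4 and 96.4 CPM in WT and 105, 84.2 and 91.6 CPM in the knockout, a difference of 0.014 ± 0.088 (edgeR adjusted p = 0.934). In CPM both genes overlapped between genotypes. BBC3, the BH3-only protein PUMA, measured 18.2, 18.1 and 16.4 CPM in WT and 17.7, 9.73 and 15.3 CPM in the knockout, a difference of -0.30 ± 0.18 (edgeR adjusted p = 0.27). FAS, a death receptor, measured 3.1, 1.88 and 1.69 CPM in WT and 1.53, 2.55 and 2.61 CPM in the knockout, a difference of 0.0063 ± 0.33 (edgeR adjusted p = 0.993). At this low level a change within its SE could not be detected.
Among 4 targets the groups did not overlap although the threshold was missed. These were the nuclease AEN (difference -0.27 ± 0.099, edgeR adjusted p = 0.0708), the kinase PLK3 (0.46 ± 0.16, edgeR adjusted p = 0.0604), the phosphatase PPM1D, which switches off p53 signalling (0.14 ± 0.086, edgeR adjusted p = 0.272), and the ribosomal protein paralog RPS27L (0.21 ± 0.086, edgeR adjusted p = 0.106). AEN passed without knockout replicate 1 (edgeR adjusted p = 0.0185), and PLK3 without knockout replicate 2 (0.00678). EDA2R, a receptor for ectodysplasin A2, had a difference of 0.39 ± 0.18 (edgeR adjusted p = 0.148) and passed without knockout replicate 2 (0.0241). RRM2B, a ribonucleotide reductase subunit, had a difference of 0.28 ± 0.12 (edgeR adjusted p = 0.108) and passed without knockout replicate 1 (0.0119).
The other 8 targets overlapped between genotypes, with log2 differences from -0.16 for PHLDA3, an AKT inhibitor, to 0.20 for TIGAR, a fructose bisphosphatase. They include XPC (0.10) and POLH (0.10), which act in DNA repair and translesion synthesis, ZMAT3 (0.036), an RNA-binding protein, and TP53INP1 (0.021), a stress-induced nuclear protein. FDXR (-0.073) is the ferredoxin reductase of mitochondria and TRIAP1 (-0.14) an inhibitor of apoptosome assembly.

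The libraries did not contribute evenly to the p53 targets. Over all genes, knockout replicates 1 and 2 were the most unlike pair within a genotype (chi-square per gene of 23.1, against 4.31 to 9.53 for the other pairs). Knockout replicate 2 was the lowest knockout library for 18 of the 28 (64.3%) and for 41.5% of all genes tested. WT replicate 1 was the highest WT library for 18 of 28 (64.3%, against 32.8% of all genes), and WT replicate 3 the lowest for 19 (67.9%, against 36.3%). The summed level of the 28 targets ran from 1181 to 1277 CPM in WT and from 1178 to 1348 CPM in the knockout, so the sums overlapped. In a list of cell cycle genes that p53 represses, knockout replicate 2 stood at the opposite end, as the highest knockout library for 30 of 31 genes. The part of this library difference in the results was not tested, and the values without each library are given with the genes whose call changes.

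Among 24 tested genes of a list of p53 pathway regulators 6 were higher, 2 were lower and 16 missed the threshold. The share called was 33.3%, against 26.0% of all genes, and the median change was 0.091. MDM4, the partner of MDM2, had a difference of 0.13 (edgeR adjusted p = 0.211). CDKN2A, whose alternative product ARF restrains MDM2, measured 5.47, 5.18 and 5.83 CPM in WT and 1.37, 1.64 and 1.68 CPM in the knockout, a change of -1.81 ± 0.22 (edgeR adjusted p = 0.000121). HIPK2, a kinase that phosphorylates p53, rose by 0.60 ± 0.091 (edgeR adjusted p = 0.000642), and COP1, a ubiquitin ligase that can target p53, by 0.51 ± 0.079 (edgeR adjusted p = 0.000755). RPL11, a ribosomal protein that can bind MDM2, rose by 0.36 ± 0.058 (edgeR adjusted p = 0.000914).
A list of other p53 targets was also mixed in direction, with 8 of 39 tested genes higher, 5 lower and a median of 0.0065. The share called in it was 33.3%, against 26.0% of all genes. KITLG, the ligand of the receptor KIT, rose from 3.72 ± 0.84 to 14.8 ± 1.99 CPM (2.0 ± 0.19, edgeR adjusted p = 1.91e-05). PGF, a placental growth factor, fell from 46.7 ± 2.18 to 20.7 ± 3.6 CPM (-1.17 ± 0.12, edgeR adjusted p = 4.25e-05). BTG1, a relative of BTG2, changed in the same direction as it (-0.70 ± 0.093, edgeR adjusted p = 0.00026), and CCNG1, cyclin G1, rose (0.54 ± 0.092, edgeR adjusted p = 0.00132). The 40 tested genes around CCNG1 on chromosome 5 had a median change of 0.61, so the gene moved by no more than its neighbours.
Cell cycle genes that p53 represses through p21 and the DREAM complex had 0 of 31 higher and 2 lower (6.45% called, against 26.0% of all genes, of which 14.5% were higher and 11.5% lower), with a median of -0.059. The knockout libraries stood apart in these genes: besides replicate 2 at the top, replicate 1 was the lowest for 28 of the 31. The 2 were the survivin gene BIRC5 (-0.35 ± 0.065, edgeR adjusted p = 0.00258) and CDC20, an activator of the anaphase-promoting complex (-0.31 ± 0.083, edgeR adjusted p = 0.0184).

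Of the 13 tested BCL2 family genes 3 fell and 0 rose, 10 missed the threshold, and the median log2 change was -0.031. The share called, 23.1%, was near the 26.0% of all genes (14.5% higher and 11.5% lower). DESeq2 and limma-voom also called 0 of the 13 higher. HRK, a neuronal BH3-only protein (chr12:116856144-116881441), measured 11.3, 11.1 and 6.75 CPM in WT and 3.82, 3.23 and 2.99 CPM in the knockout. With means of 9.72 ± 2.57 and 3.34 ± 0.429 CPM, it changed by -1.54 ± 0.22 (edgeR adjusted p = 0.000469). Its fold change was the largest of the 13 tested, and the lowest WT library, replicate 3, still lay above every knockout library. BCL2L12, an atypical family member found in cytosol and nucleus (chr19:49665142-49673916), measured 31.3, 31 and 36.7 CPM in WT and 23.6, 24.8 and 22.8 CPM in the knockout. The mean went from 33 ± 3.22 to 23.7 ± 1 CPM, a change of -0.48 ± 0.10 (edgeR adjusted p = 0.00517). BAK1, a pore former like BAX (chr6:33572552-33580276), measured 49.5, 42.2 and 52 CPM in WT and 36.3, 29.4 and 38.3 CPM in the knockout. That is a change of -0.47 ± 0.12 between means of 47.9 ± 5.08 and 34.7 ± 4.66 CPM (edgeR adjusted p = 0.014). The groups did not overlap for either gene. The BAK1 call was lost without WT replicate 1 (edgeR adjusted p = 0.0533) and without WT replicate 3 (0.0664). BAK1 and BCL2L12 have annotated pseudogenes, and reads could be divided between the copies.
The guardians did not pass the threshold, and the groups overlapped for each of them. MCL1 measured 266, 287 and 300 CPM in WT and 249, 330 and 298 CPM in the knockout, the highest CPM of the family, with a difference of 0.041 ± 0.096 (edgeR adjusted p = 0.808). BCL2L1, which encodes BCL-XL, measured 86.9, 85.9 and 86 CPM in WT and 87, 81.8 and 88.5 CPM in the knockout, a difference of -0.0082 ± 0.067 (edgeR adjusted p = 0.951). BCL2 measured 74, 71.4 and 66.7 CPM in WT and 66.8, 76.7 and 74.2 CPM in the knockout, a difference of 0.038 ± 0.08 (edgeR adjusted p = 0.785). The standard errors of these 3 genes are all below 0.1 on the log2 scale. BCL2L2, or BCL-w, had a difference of -0.094 ± 0.084 (edgeR adjusted p = 0.464).
BOK and the BH3-only genes other than HRK did not pass. BCL2L11, or BIM, had a difference of -0.0028 ± 0.078 (edgeR adjusted p = 0.986), and PMAIP1, or NOXA, by -0.011 ± 0.22 (edgeR adjusted p = 0.979). BID, which CASP8 cleaves, had a difference of -0.031 ± 0.08 (edgeR adjusted p = 0.823), and BOK, a relative of BAX and BAK1, by 0.24 ± 0.13 (edgeR adjusted p = 0.235). BAD, whose activity is set by phosphorylation, had a difference of -0.22 ± 0.098 (edgeR adjusted p = 0.131) with all 3 knockout libraries below WT. BMF, which responds to loss of attachment, measured 65.3, 60.2 and 59.4 CPM in WT and 64.2, 40.2 and 49.3 CPM in the knockout, a difference of -0.27 ± 0.14 (edgeR adjusted p = 0.205). Knockout replicate 1 sat at the WT level for BMF and replicate 2 lowest. Without knockout replicate 1, BMF (edgeR adjusted p = 0.00562) and BAD (0.0445) passed, and the family then counted 5 lower genes.
BIK, a BH3-only gene, had too few reads for the test: 1, 8 and 14 counts in WT and 2, 0 and 1 in the knockout, or 23 against 3. The ratio of knockout to WT was 0.126 with an exact 95% interval of 0.0243 to 0.418, which covers counting error only. WT replicate 1 lay at the level of the knockout libraries, so the groups overlapped.
Of 5 tested genes in a list of other BCL2 family genes, 0 passed. Among 13 mitochondrial death factors and caspase substrates 0 rose and 2 fell, TMBIM6, an inhibitor of BAX-driven death (-0.31 ± 0.055, edgeR adjusted p = 0.00188), and AIFM1, the apoptosis-inducing factor (-0.29 ± 0.08, edgeR adjusted p = 0.0229). That is 15.4% of the 13, against 26.0% of all genes.

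Among the caspases and APAF1, 2 of 5 rose and 0 fell, with a median of 0.00041. The share called was 40%, against 26.0% of all genes. CASP8, the initiator caspase of death receptors (chr2:201233463-201287711), measured 3.78, 4.67 and 5.68 CPM in WT and 8.61, 7.95 and 8.68 CPM in the knockout. Between means of 4.71 ± 0.95 and 8.41 ± 0.403 CPM the change was 0.84 ± 0.18 (edgeR adjusted p = 0.00523). All knockout libraries were above all WT libraries, at a low level. The call was lost with counts summed from the transcript values (edgeR adjusted p = 0.0937) or corrected for length (0.181), and 71.5% of the counts of CASP8 came from transcripts in the annotation used here. APAF1, the scaffold of the apoptosome (chr12:98645290-98735433), measured 29, 32.7 and 30.4 CPM in WT and 37.2, 42.2 and 38.6 CPM in the knockout. With means of 30.7 ± 1.89 and 39.3 ± 2.61 CPM, it changed by 0.36 ± 0.092 (edgeR adjusted p = 0.015). The groups did not overlap. This call was lost without WT replicate 1 (edgeR adjusted p = 0.0718), WT replicate 3 (0.0526) or knockout replicate 3 (0.0552). Counts corrected for length also ended the APAF1 call (edgeR adjusted p = 0.0546).
CASP9, which the apoptosome activates, had a difference of -0.17 ± 0.096 (edgeR adjusted p = 0.245). CASP2, a caspase that responds to DNA damage, had a difference of 0.00041 ± 0.072 (edgeR adjusted p = 0.998), and CASP6, an executioner caspase, had a difference of -0.10 ± 0.11 (edgeR adjusted p = 0.567). Of 3 other caspases tested 0 passed.

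CFLAR, the FLIP inhibitor that competes with CASP8 at death receptors (chr2:201116164-201176687), measured 25.8, 29.8 and 24.6 CPM in WT and 43.8, 40.5 and 42.2 CPM in the knockout. The mean went from 26.7 ± 2.7 to 42.2 ± 1.65 CPM, a change of 0.66 ± 0.097 (edgeR adjusted p = 0.000522). The gap between the groups was wider than the spread within either. CFLAR and CASP8 are neighbours on chromosome 2 and both rose, while the median change of the 40 tested genes around CASP8 was 0.082. The TPM ratio of CASP8 to CFLAR was 0.212, 0.201 and 0.171 in WT and 0.225, 0.146 and 0.2 in the knockout, and so overlapped.
DIABLO, a mitochondrial protein that displaces IAPs from caspases (chr12:122207662-122227456), measured 121, 125 and 127 CPM in WT and 115, 98 and 107 CPM in the knockout. That is a change of -0.23 ± 0.074 between means of 124 ± 2.88 and 106 ± 8.32 CPM (edgeR adjusted p = 0.0455). The call sat close to the threshold and was lost when any WT library was left out (edgeR adjusted p = 0.0886, 0.118 and 0.107 for replicates 1, 2 and 3), when knockout replicate 2 (0.0901) or 3 (0.148) was, and also with transcript-summed (0.054) and length-corrected (0.0786) counts. XIAP, which binds caspases directly, measured 38.6, 41 and 39.2 CPM in WT and 40.5, 56.7 and 43 CPM in the knockout, a difference of 0.24 ± 0.12 (edgeR adjusted p = 0.183). Knockout replicate 2 alone stood well above the WT libraries, and XIAP passed without knockout replicate 1 (edgeR adjusted p = 0.0494). BIRC2, or cIAP1, had a difference of 0.13 ± 0.11 (edgeR adjusted p = 0.427).
BIRC3, or cIAP2, was not tested. It had 11 counts over the WT libraries and 48 over the knockout libraries, a ratio of 4.23 with an exact 95% interval of 2.17 to 9.03 for counting error only. Per library it measured 0.0968, 0.152 and 0.307 CPM in WT and 0.764, 1.16 and 0.42 CPM in the knockout, without overlap. With no filter on low counts it was tested and passed as higher. It also entered the test and passed when WT replicate 3, its highest WT library, or knockout replicate 3, its lowest knockout library, was left out. Entry past the filter in those runs rested on the knockout libraries, where it is high, so they are no separate support.
Of 3 other IAP genes, the giant ubiquitin ligase BIRC6 rose (0.29 ± 0.085, edgeR adjusted p = 0.0281) and BIRC5 fell, as given above. In 9 tested genes of death receptor signalling 1 rose, the deubiquitinase CYLD (0.39 ± 0.089, edgeR adjusted p = 0.00789), and 1 fell, the receptor TNFRSF25 (-0.47 ± 0.14, edgeR adjusted p = 0.0281). The shares called were 66.7% for the other IAP genes and 22.2% for death receptor signalling, against 26.0% of all genes. RNA levels do not show how much caspase or inhibitor protein is cleaved or bound.

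**Figure D3:**
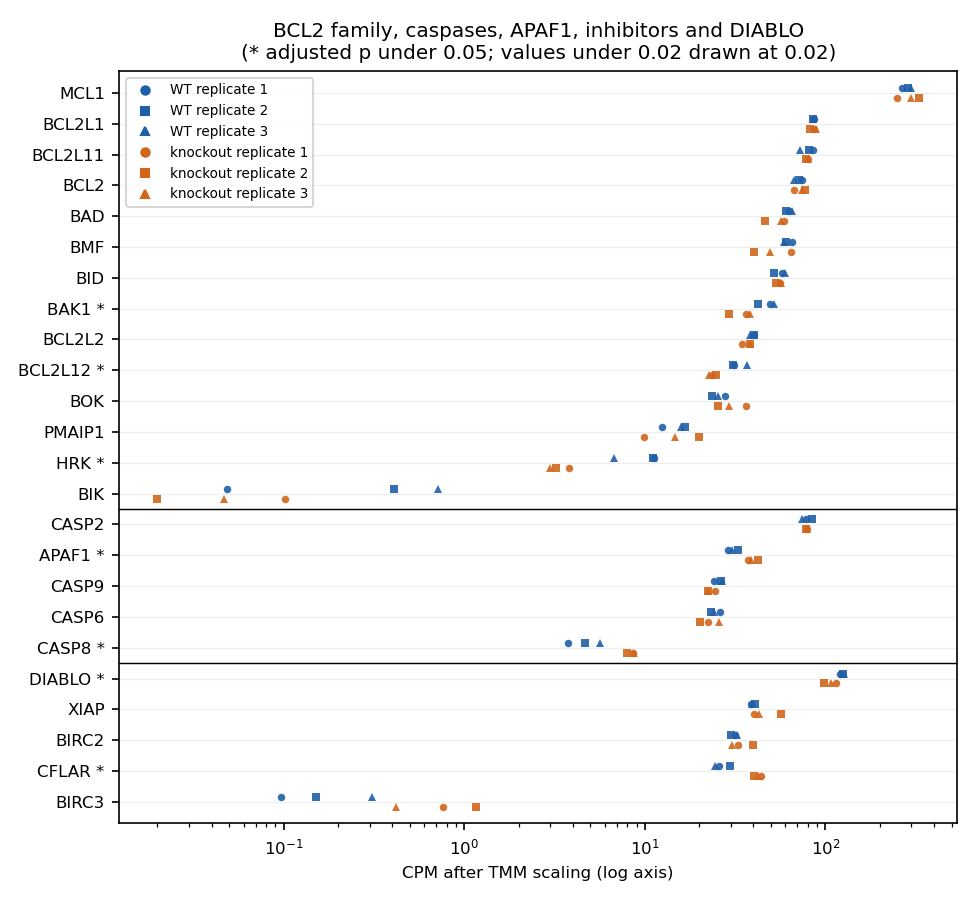
Level of the BCL2 family genes, of the caspases with APAF1 and of the inhibitors with DIABLO in each library, in CPM after TMM scaling on a log axis, with colours and marker shapes for genotype and replicate; values under 0.02 are drawn at 0.02. HRK, BAK1, BCL2L12 and DIABLO lie lower and CASP8, APAF1 and CFLAR higher in the knockout, and MCL1, BCL2L1 and BCL2 overlap.

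Levels between genes were compared on the TPM scale, which accounts for transcript length, over transcripts in the annotation used here. BAX was the highest of the 52 in both genotypes, at 228 ± 8.99 TPM in WT and 198 ± 13.1 TPM in the knockout. Its libraries measured 218, 230 and 236 TPM in WT and 206, 183 and 204 TPM in the knockout. On this scale the BAX groups did not overlap, while in CPM they did. CDKN1A was next in WT and went from 135 ± 8.5 TPM to 84.9 ± 18.8 TPM. DIABLO (129 ± 6.5 TPM in WT and 104 ± 7.4 TPM in the knockout), RPS27L (129 ± 5.47 TPM in WT and 132 ± 10.1 TPM in the knockout) and BAD (128 ± 2.48 TPM in WT and 105 ± 12.1 TPM in the knockout) did not differ in WT from CDKN1A beyond their spread. MCL1 followed, at 97.9 ± 5.9 TPM in WT and 95.6 ± 10.8 TPM in the knockout, and BID at 66.2 ± 4.26 TPM in WT and 61.3 ± 1.35 TPM in the knockout.
In the knockout CDKN1A, TP53I3, MCL1, DIABLO and BAD lay within each other's spread, and TP53I3 had moved up from 50.1 ± 7.72 TPM to 97.4 ± 17.7 TPM. The guardian BCL2 was far lower, at 14.5 ± 0.662 TPM in WT and 15.5 ± 2.86 TPM in the knockout. The TPM ratio of BAX to BCL2 was 15, 16.6 and 15.6 in WT and 16.8, 10.3 and 12.4 in the knockout, with overlap. At the low end lay SPATA18 (2.65 ± 0.784 TPM in WT and 3.83 ± 0.484 TPM in the knockout) and HRK (2.43 ± 0.783 TPM in WT and 0.948 ± 0.313 TPM in the knockout). For FAS, CASP8, BCL2L1, BIRC3 and PPM1D less than 90% of the counts came from annotated transcripts, from 22.7% for FAS to 88% for PPM1D, so their TPM is incomplete.

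**Figure D4:**
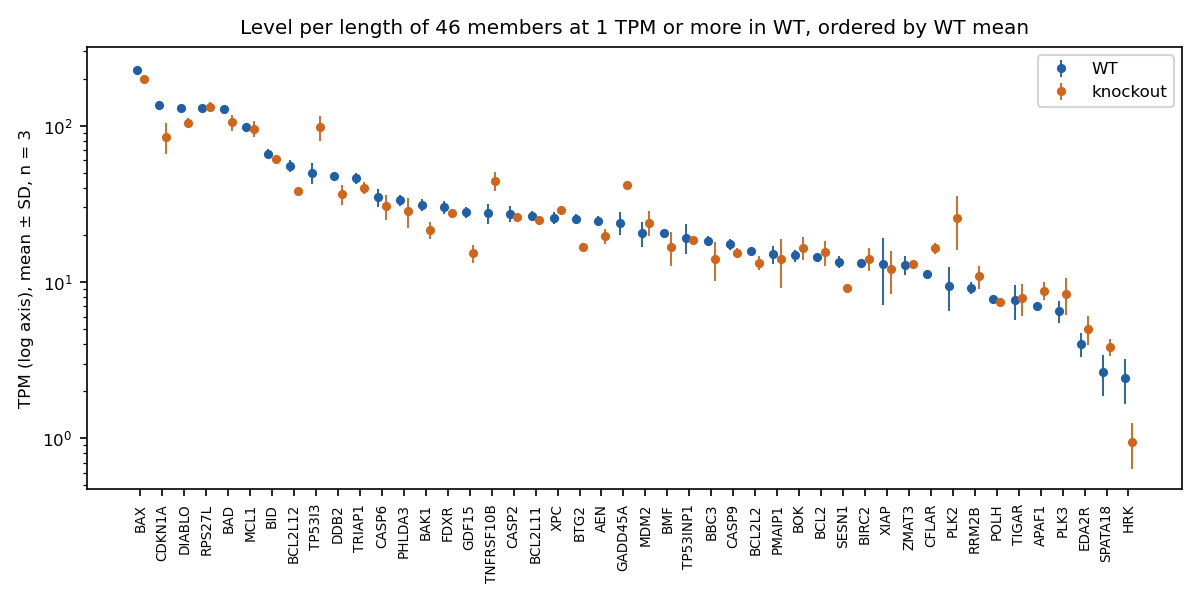
TPM of 46 of the 52 genes (vertical log axis, mean ± SD, n = 3 libraries per genotype), ordered by WT mean; genes under 1 TPM in WT and genes with less than 90% of counts in annotated transcripts are left out. BAX is highest in both genotypes and HRK lowest, and CDKN1A and TP53I3 change order between WT and knockout.

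Transcript shares were described without a test, because 3 libraries against 3 cannot go below p = 0.1 in an exact permutation test and the assignment of reads to similar transcripts adds error that the values do not carry. Of the 23 genes whose leading transcript was examined, its share of the gene's TPM overlapped between genotypes in 19. It was higher in every knockout library for BCL2L12 and DIABLO and lower in every one for MCL1 and MDM2. How often leading transcripts separate in this way over all genes was not examined, so these genes are not shown to stand out. CDKN1A-201 carried 92.5%, 94.6% and 91.2% of CDKN1A in WT and 90.5%, 95.6% and 92% in the knockout.
MDM2 has an outer promoter and an inner promoter, the inner one being the p53-responsive one shown above. Transcripts starting within 150 bases of the inner promoter's RefSeq start measured 1.92, 3.89 and 1.26 TPM in WT and 5.63, 7.36 and 7.74 TPM in the knockout. Those of the outer promoter measured 14.6, 15.8 and 14.5 TPM in WT and 12.6, 15.9 and 14.1 TPM in the knockout. With this window the inner-promoter groups did not overlap and the outer-promoter groups did. The separation depended on the window. With 250 bases, chosen after seeing the data, the inner promoter measured 8.41, 5.73 and 1.7 TPM in WT and 6.37, 8.06 and 8.08 TPM in the knockout, and WT replicate 1 lay above every knockout library. With 150 bases, the inner promoter's share of MDM2 was 8.33%, 17.6% and 7.75% in WT and 28.8%, 26% and 32.2% in the knockout, from 21.7 to 129 and from 198 to 250 estimated reads per library. A further 24 transcripts began outside both 150-base windows and held 2.71% to 28.1% of the WT and 6.92% to 17.8% of the knockout TPM. Those of them that start at base 68809212 or 68809227 are the ones that the 250-base window adds to the inner promoter. They include MDM2-206 and MDM2-207, which held the 28.1% in WT replicate 1.
Another 3 transcripts were picked after their values were seen. BCL2L12-207, annotated as subject to nonsense-mediated decay, held 12.2%, 12.7% and 11.8% of BCL2L12 in WT and 4.54%, 4.3% and 4.64% in the knockout, from 63.2 to 69.5 and from 17.3 to 18.3 estimated reads per library. BCL2L1-205 held 4.22%, 3.43% and 5.11% of the annotated BCL2L1 TPM in WT and 18.7%, 17.1% and 18.5% in the knockout, while the log2 difference of the gene's CPM was -0.0082 ± 0.067. BAX-212, also of the decay type, held 15.2%, 18.5% and 14.5% in WT and 5.53%, 10.6% and 11.6% in the knockout. In each of the 3 the genotypes did not overlap.

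**Figure D5:**
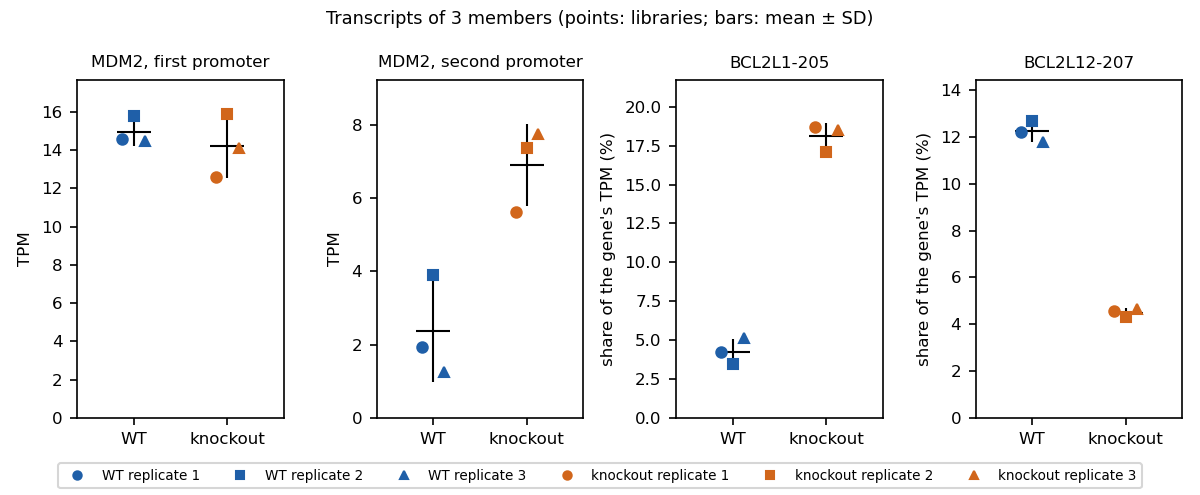
Transcript values in each library with mean ± SD (n = 3): TPM of MDM2 transcripts from the outer (first) and inner (second) promoter (starts within 150 bases), and the share of the gene's TPM, in percent, of BCL2L1-205 and BCL2L12-207. The inner MDM2 promoter, with this window, and BCL2L1-205 are higher in all 3 knockout libraries, BCL2L12-207 is lower, and the outer MDM2 promoter overlaps. BCL2L1-205 and BCL2L12-207 were picked after their values were seen.

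Around the members with a position, the median change of the 20 nearest tested genes on each side ran from -0.16 to 0.14. In 24 of the 52, 9 of them among the 17 called, exon bases are shared with a gene on the other strand, and the sources used here do not state whether the counting used strand. IRF3, opposite BCL2L12, changed by -0.35 ± 0.086 (edgeR adjusted p = 0.0128), and B3GNT4, opposite DIABLO, by -1.61 ± 0.20 (edgeR adjusted p = 0.000168), each in the direction of its partner. RHOBTB2, opposite TNFRSF10B, had a difference of -0.12 ± 0.074 (edgeR adjusted p = 0.26) and ANKS1B, opposite APAF1, by 0.43 ± 0.23 (edgeR adjusted p = 0.2). ACTA2, which overlaps FAS, rose by 2.65 ± 0.12 (edgeR adjusted p = 9.36e-08), while the difference of FAS was 0.0063 ± 0.33. Exon bases are also shared with another gene on the same strand for the called genes CFLAR and DIABLO. The same holds for BBC3, MDM2, PHLDA3, TIGAR, BCL2L2 and MCL1, which were not called. The part of this sharing in their counts was not tested.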

How the data were processed

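The 6 RNA-seq libraries (3 WT, 3 DNAJC12 knockout) were grouped by the genotype in the labels. Estimated counts per gene, whole numbers without normalization, were deposited as 1 table; TPM values and estimated counts per transcript were deposited for each library, per the file headers. The submitters' processing notes name cutadapt 3.5, Salmon 1.10.0, DESeq2 1.42.1 and GRCh38.p14 (hg38); the annotation release and strand setting are not given in the sources used here. Salmon-type estimates divide reads between similar transcripts, so genes with close copies are uncertain. In the table, 403 repeated rows were removed.

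After filterByExpr (16403 genes) and TMM scaling, the genotypes were compared by the two-sided quasi-likelihood F-test of edgeR 4.0.16 (R 4.3.3), with Benjamini-Hochberg adjustment over all tested genes and a threshold of 0.05. Each SE is the size of the log2 fold change divided by the root of its F value. The script was tested on simulated data in which 200 of 16403 genes were changed, where 4270 genes were called in the real libraries. It called 55.2% of the genes changed by 1.5 times, 73.1% of those changed by 2 times and 93.9% of those changed by 4 times. Of its calls 7.5% were false. These rates depend on how many genes change, so they are not estimates for the real libraries. Small changes can be missed and calls close to the threshold are uncertain. Transcripts were assigned to genes by GENCODE release 29, which held 94.2% to 94.6% of the reads; gene positions and promoter windows are from RefSeq (GRCh38.p14). One count was 0.0457 to 0.0518 CPM.

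Alternatives were DESeq2 1.42.0, limma-voom (limma 3.58.1), other scalings and filters, a replicate block, each library left out, gene counts from the transcript files and a threshold of 0.01. Full values are given for members past the threshold and short values or ranges for the rest; of related lists, counts and the 4 genes with the smallest adjusted p that passed. The members and lists were chosen with earlier results of these data known. Of 150 listed related genes, 137 matched a row by symbol and the other 13 are not analysed here. Results for some listed genes are not reported here; counts over lists include them.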

Additional observations from a re-analysis of the deposited data

How the results depend on the processing

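DESeq2, limma-voom, DESeq2 size factors and a minimum of 1 CPM in 3 libraries called the same 17 genes, and none of these 17 changed direction under any alternative run. Counts that moved by more than 1.5 times were these. With length-corrected transcript counts 1220 genes of the whole table were lower, and 5 of the 50 were higher. A threshold of 0.01 left 1062 lower genes in the whole table, 4 lower members, 2 lower p53 targets and 1 higher caspase gene. DIABLO, the only gene called lower in the group of inhibitors and DIABLO, was not called at that threshold. Among the caspases and APAF1, transcript-summed counts gave 1 and length-corrected counts 0 higher genes. With both, DIABLO was no longer called lower. With no filter on low counts 2 inhibitor genes were higher, CFLAR and BIRC3. Leaving out each library in turn gave 1208 to 2150 lower genes in the whole table, 5 to 12 lower members and 3 to 6 lower p53 targets. It also gave 2 to 5 lower BCL2 family genes, 1 to 2 higher genes among the caspases and APAF1, and 1 to 2 higher inhibitor genes. DIABLO stayed lower only without knockout replicate 1. The count of higher members, 7 to 10 in these runs, did not move by more than 1.5 times. The cause of these moves was not tested.

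The replicate numbers were not found to pair the libraries: the correlations of deviations between same-numbered libraries were 0.0591, -0.0297 and -0.0652, and of these only replicate 1 correlated best with its own number. A replicate block gave 19 called members, adding AEN (edgeR adjusted p = 0.0313) and PLK3 (0.0492), and 2541 higher and 2024 lower genes in the whole table. Depth limits BIK, BIRC3 and FAS, which had few reads, and the TPM of genes with transcripts outside the annotation.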
